A study of Mus musculus with 25 samples.

Results

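The 10 genes described here are components of the circadian clock, the transcription feedback loop that runs in most mammalian cells, fat cells included. They were found by matching the gene symbols of the array's annotation to Arntl (also called Bmal1), Clock, Per1, Per2, Per3, Cry1, Nr1d1, Nr1d2, Dbp and Bhlhe40, which gave 10 of 18193 named genes and 23 of 45037 probe sets. A probe set is the group of short oligonucleotides that together report 1 transcript. Of the 23, 21 were tested, having lain above the median of the array on 2 or more of the 25 arrays. The exceptions were a Per3 probe set that lay at or below 0 on 22 arrays and a second Nr1d2 probe set that did so on 14.

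The cells were 3T3-L1 adipocytes, an established mouse line whose preadipocytes can be turned into fat cells in the dish. They received CLA as the treatment or LA as the control, abbreviations that the labels leave unexplained and that usually mean conjugated linoleic acid and linoleic acid. RNA was taken at 4, 8, 12 and 24 h. In that order of times there were 2, 3, 4 and 3 CLA arrays and 3, 3, 4 and 3 LA arrays, which the labels call biological replicates. Each time had its own LA arrays. The dose, the isomer and any step that sets the phase of the cells' clocks are not given in the labels used here. All arrays came from 1 cell line in culture, and in such bulk samples fewer cells of a kind and less RNA per cell cannot be told apart.

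In the clock's core loop, the proteins of Arntl and Clock pair and switch on genes that carry E-box sequences, among them the Per and Cry genes, whose proteins then block that pair. In a second loop the nuclear receptors of Nr1d1 and Nr1d2 (REV-ERBα and REV-ERBβ) repress Arntl through an element called RORE. Dbp is an output factor that is itself driven by the core loop and binds D-box elements, such as those of the Per genes. Bhlhe40 (DEC1) represses E-box genes and responds to many stimuli. In fat tissue this clock is known for its part in the timing of lipid storage and release, and REV-ERBα has been tied to adipocyte differentiation.

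Of the 10 members, 8 had 1 or more entries in RefSeq's table of promoter windows (build GRCm38.p6), which gave 12 windows of 300 bases, each with 250 bases before the start site and 50 after it. Windows are shown for both genes whose probe sets passed the test below, Dbp and Nr1d1, and for 1 gene each with the element their proteins bind, the D-box in Per3 and the RORE in Arntl. The Dbp window is chr7:45704997-45705296 on the + strand, the Per3 window chr4:151044616-151044915 on the - strand, the Nr1d1 window chr11:98775328-98775627 on the - strand and the Arntl window chr7:113207261-113207560 on the + strand. Each is written 5′ to 3′ on the strand of its gene, with matches to the motifs searched in capitals.
Dbp: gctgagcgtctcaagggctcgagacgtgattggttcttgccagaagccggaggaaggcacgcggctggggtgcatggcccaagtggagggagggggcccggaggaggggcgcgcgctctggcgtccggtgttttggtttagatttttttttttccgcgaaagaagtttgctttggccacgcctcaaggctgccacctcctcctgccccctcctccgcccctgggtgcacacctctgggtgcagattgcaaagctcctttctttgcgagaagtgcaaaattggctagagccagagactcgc
Per3: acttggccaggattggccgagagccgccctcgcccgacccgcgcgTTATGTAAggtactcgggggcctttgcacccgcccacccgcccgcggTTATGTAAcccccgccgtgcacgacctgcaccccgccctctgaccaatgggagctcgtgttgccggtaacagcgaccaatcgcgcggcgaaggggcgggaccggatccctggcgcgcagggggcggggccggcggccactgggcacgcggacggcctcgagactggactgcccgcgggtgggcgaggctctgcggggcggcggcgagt
Nr1d1: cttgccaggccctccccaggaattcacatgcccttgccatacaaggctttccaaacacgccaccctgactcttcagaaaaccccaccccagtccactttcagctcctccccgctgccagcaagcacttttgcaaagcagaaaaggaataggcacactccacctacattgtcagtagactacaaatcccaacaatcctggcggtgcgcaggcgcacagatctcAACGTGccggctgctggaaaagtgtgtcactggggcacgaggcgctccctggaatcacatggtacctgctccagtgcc
Arntl: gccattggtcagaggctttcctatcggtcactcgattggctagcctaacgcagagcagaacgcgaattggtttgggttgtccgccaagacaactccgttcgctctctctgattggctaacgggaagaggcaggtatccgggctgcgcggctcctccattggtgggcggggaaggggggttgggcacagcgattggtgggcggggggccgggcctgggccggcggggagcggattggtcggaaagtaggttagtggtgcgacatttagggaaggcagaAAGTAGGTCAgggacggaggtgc

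Motifs were searched on both strands, and no 2 matches overlapped in these windows. The D-box letters TTATGTAA or TTACGTAA occurred in 1.06% of all 32851 windows and in 1 member, Per3, which held 2 copies that begin 205 and 158 bases before the start site. The RORE (searched as A, 2 of any letter, T, 1 of any letter, then GGTCA) occurred in 2.46% of all windows and, among the members, in 1 of the 2 Arntl windows, beginning 27 bases after its start site. The E-box CACGTG was found in 7.15% of all windows and in those of Cry1 and of Per1 (1 of its 2 windows). The related letters CACGTT, present in 4.68% of all windows, were found in Cry1 and Nr1d1. The Dbp window held none of these letters. A match is a description of the sequence, not a measured binding site.

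Levels are the deposited intensities after quantile normalisation between arrays, and differences are CLA minus LA of log2(intensity + 16), with limma's standard error. The fit included a term for 5 sets of arrays, A to E, that clustering of the arrays separated without use of treatment or time and that the labels do not name. A gene is said to have risen or fallen where its p, adjusted by Benjamini-Hochberg over all 32451 probe sets tested, was under 0.05. Mean intensities ran from 71.2 to 148 over the arrays. Set C held 5 arrays with 75th percentiles of 26.5 to 37.4 (CLA 4 h replicate 1, CLA 12 h replicate 4, LA 4 h replicate 3, LA 8 h replicate 3 and LA 12 h replicate 4), while the range over sets B, D and E was 54.4 to 84.7. Set A held CLA 8 h replicate 1 (75th percentile 67.6), LA 4 h replicate 1 (29.6, as dim as set C) and LA 8 h replicate 1 (68), and set B the 8 arrays numbered replicate 2. Set D held the replicates numbered 3 of CLA at 8, 12 and 24 h and of LA at 12 and 24 h, and set E the replicates numbered 1 of both treatments at 12 and 24 h. The signal ratio of the 3′ to the 5′ end of actin mRNA, which grows as RNA degrades, stood at 8.11 on LA 4 h replicate 1, at 5.67 on LA 12 h replicate 1 and between 1.43 and 3.32 on the remaining 23 arrays. The 9 adipocyte markers measured included Fabp4, Adipoq and Lpl at mean intensities of 8580, 7050 and 6590, while leptin (Lep) lay near 0 with a mean of -5.15.

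Dbp was lower under CLA at 12 and 24 h, and Nr1d1 was higher at 8 h. The other 8 genes had no probe set past the threshold at any time. Of the 21 probe sets, 0 passed at 4 h, where 0.0185% of all probe sets did, 1 passed at 8 h (background 1.16%), 2 at 12 h (background 3%) and 1 at 24 h (background 2.78%). By direction, the backgrounds were 0.887% higher at 8 h, 1.51% lower at 12 h and 2.2% lower at 24 h. At an unadjusted p under 0.05 3, 5, 4 and 4 of the 21 passed at 4, 8, 12 and 24 h, against 11.1%, 13%, 15.1% and 13.5% of all probe sets. The median difference over the 10 genes, each by its brightest probe set, was 0.21 at 4 h, 0.12 at 8 h, 0.12 at 12 h and -0.17 at 24 h, against 0.01, -0.01, 0.00 and 0.02 over all probe sets.

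**Figure D1:**
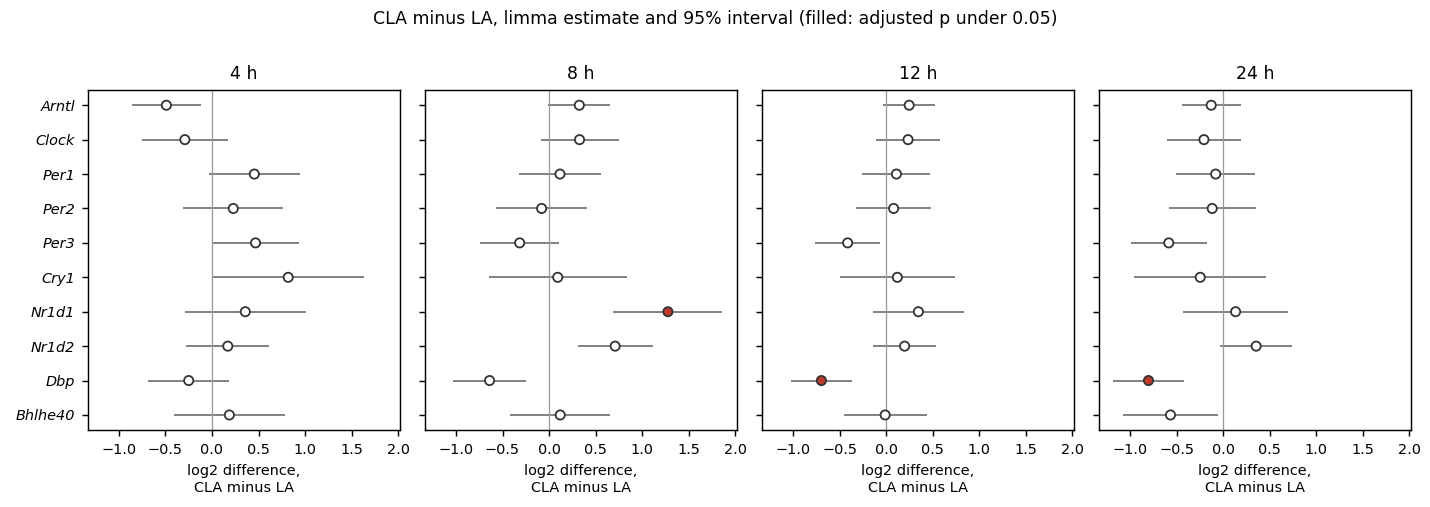
CLA minus LA of log2(intensity + 16) for the brightest probe set of each clock gene at 4, 8, 12 and 24 h, with limma's estimate (point) and 95% interval (line) on the horizontal axis; filled points had an adjusted p under 0.05. The filled points are Nr1d1 at 8 h (1.28) and Dbp at 12 h (-0.70) and 24 h (-0.80).

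Dbp, the output factor, was measured by 2 probe sets. At 12 h the first gave intensities of 71.3, 27.5, 22.4 and 115.7 in CLA replicates 1 to 4, against 163.4, 65.3, 46.5 and 129.1 in LA replicates 1 to 4. The treatments overlapped across replicates, but within each of the 4 array sets the CLA array was the lower of the pair. The fall was -0.70 ± 0.16 on the log2 scale (SE, n = 4 and 4; limma adjusted p = 0.0189), a level 0.617 times that of LA, and it ran from -0.14 in set C to -1.04 in set E.

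The second Dbp probe set had 39.7, 14.3, 16.4 and 101.7 in CLA replicates 1 to 4 at 12 h, against 51.7, 79.5, 27.2 and 144.7 in LA replicates 1 to 4. It was also lower under CLA in 4 of 4 sets, by -0.28 in set E to -1.66 in set B, and passed the test with a difference of -0.70 ± 0.18 (SE; limma adjusted p = 0.0412). That call was lost without the dim set C, with no filter on low values, with the small offset and on unnormalised values (-0.70 to -0.99, adjusted p 0.062 to 0.126). Leaving out 1 array at a time ended it for 11 of the 25 arrays. Of these, 4 were 12 h arrays (CLA replicate 2 and LA replicates 2, 3 and 4; -0.46 to -0.72, adjusted p 0.0951 to 0.195). The other 7 were arrays of 8 and 24 h, without which the difference stayed at -0.70 and the adjusted p was 0.0503 to 0.0528. Averaged over the sets, both probe sets gave the same size of fall at this time, but they differed set by set. Set E had the largest fall in the first (-1.04) and the smallest in the second (-0.28).

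At 24 h the first probe set gave 141.8, 50.4 and 44.4 in CLA replicates 1 to 3, against 218.9, 123 and 86.9 in LA replicates 1 to 3. CLA was lower in all 3 sets, by -0.58 to -1.07, although CLA replicate 1 lay above LA replicates 2 and 3. The fall was -0.80 ± 0.18 (SE, n = 3 and 3; limma adjusted p = 0.0175), or 0.573 times the LA level. The second probe set had 71.7, 52.9 and 24.8 under CLA and 89.1, 98.0 and 39.8 under LA. Its difference of -0.48 ± 0.21 was lower in 3 of 3 sets but did not pass (limma adjusted p = 0.303).

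At 8 h Dbp read 102.7, 31.2 and 22.6 in CLA replicates 1 to 3, against 159, 67.4 and 123.5 in LA replicates 1 to 3, a difference of -0.64 ± 0.19 that did not pass (limma adjusted p = 0.108) but did without CLA 12 h replicate 4 (-0.71, adjusted p = 0.0317). The second probe set had 57.2, 33.7 and 13.7 under CLA and 84.7, 81.1 and 199.5 under LA. Here the treatments did not overlap, as was the case for 3 of the 21 clock probe sets and for 11.7% of all probe sets at 8 h (at 12 h for 0 of 21 and 2.1%, at 24 h for 1 of 21 and 10.4%), and the difference was -0.79 ± 0.22 (limma adjusted p = 0.0842), which passed without CLA 12 h replicate 2 (adjusted p = 0.0186) and with the larger offset of 57.5 (-0.51, adjusted p = 0.0265). At 4 h the first probe set read 147.2 and 73.9 under CLA, against 332.1, 76.4 and 167 under LA, with a difference of -0.25 ± 0.21 (limma adjusted p = 0.707), and the second differed by -0.05 ± 0.24.

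The Dbp calls at 12 and 24 h needed the array-set term. Each set present at these times held 1 array of each treatment, so the term cannot change the size of the difference. Without it the differences were -0.70 and -0.80, with standard errors of 0.49 and 0.57. Both adjusted p were then 1, and with the sets as a random block they were 0.126 and 0.142. Leaving out 1 array at a time ended the 12 h call for 5 arrays (CLA replicate 1, 2 or 3 and LA replicate 1 or 2; differences -0.62 to -0.69, adjusted p up to 0.109) and the 24 h call for 4 arrays (replicate 2 or 3 of either treatment; -0.71 to -0.82, adjusted p up to 0.161). Without the dim set C the 12 h difference was -0.88 (adjusted p = 0.0135), and without both arrays of high actin ratio it was -0.62 (adjusted p = 0.0311). On the deposited values without normalisation the differences were -0.72 at 12 h and -0.73 at 24 h, and neither passed (adjusted p = 0.0712 and 0.14).

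Adipocyte markers were lower under CLA at the same times. Of 9 measured, 0 fell at 4 h, 2 at 8 h, 4 at 12 h and 6 at 24 h. Over all probe sets 0.0185%, 1.16%, 3% and 2.78% were called in either direction at these times. The summed intensity of the 9 at 24 h was 16670 to 26170 under CLA and 28920 to 39570 under LA. Among those that fell were Slc2a4, the insulin-responsive glucose transporter (-2.23 ± 0.25 at 24 h; limma adjusted p = 6.1e-05), and Pparg, the main regulator of fat cell differentiation (-0.85 ± 0.16; adjusted p = 0.00603). Like the Dbp call, the marker calls at 24 h were lost without the array-set term, where 0 of all probe sets passed. Of 6 fibroblast markers and 3 macrophage markers measured, 0 passed at any time. Summed over the whole list, 7 fibroblast markers gave 12020 to 18040 under CLA and 10620 to 15610 under LA at 24 h, and 5 macrophage markers gave 142 to 206 under CLA and 96.3 to 149 under LA, with the macrophage genes Ptprc and Itgam near 0 (mean intensities 1.89 and 2.26). The part of these markers in the Dbp result was not tested.

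**Figure D2:**
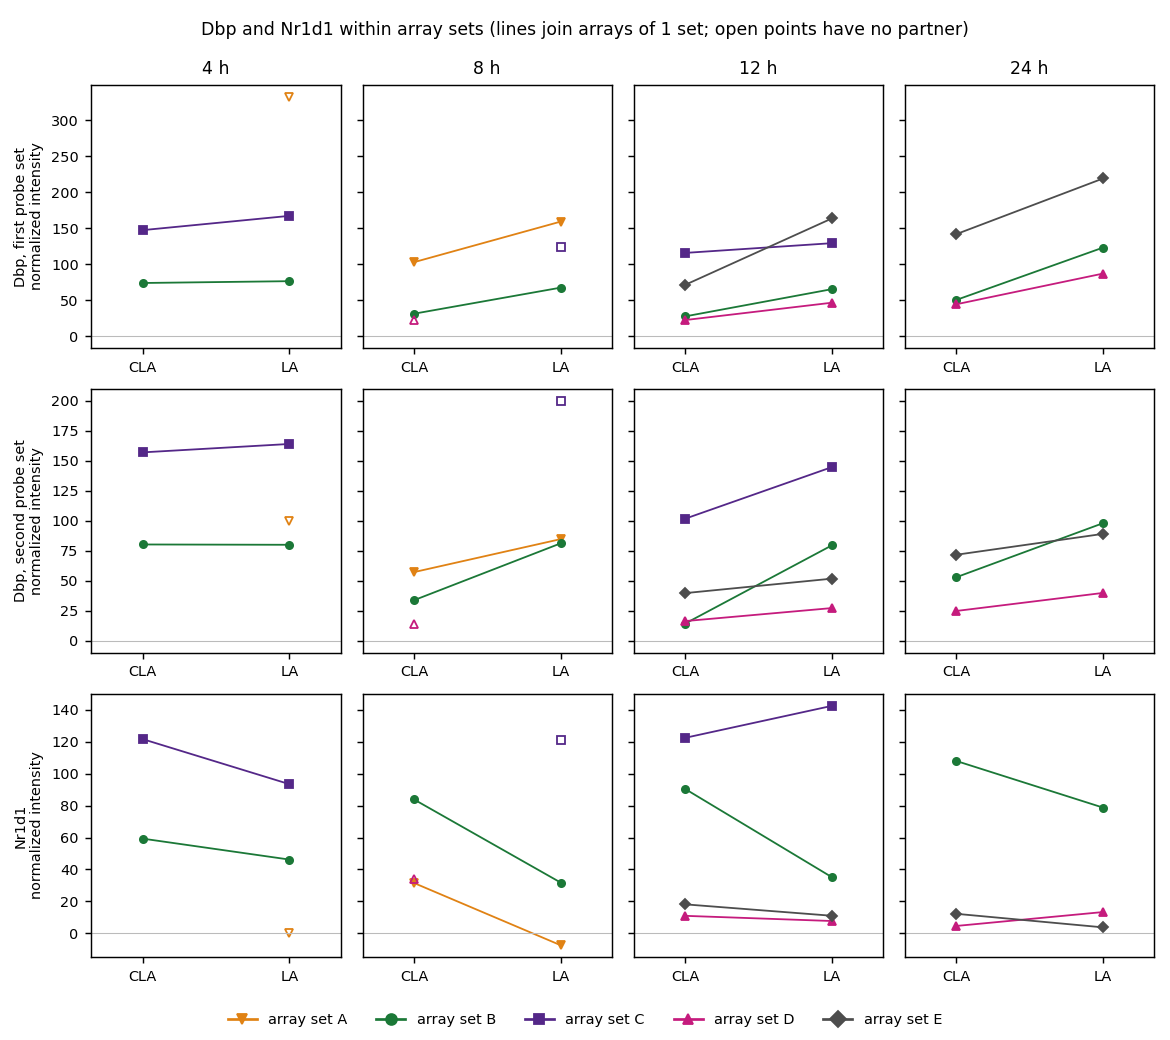
Normalised intensity of both Dbp probe sets and of Nr1d1 at each time, with CLA on the left and LA on the right of each panel; lines join the arrays of 1 array set and open points have no partner of the other treatment in their set. All 4 Dbp lines at 12 h and all 3 at 24 h run upward to LA in both probe sets, and both Nr1d1 lines at 8 h run downward to LA.

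Nr1d1, which encodes the repressor REV-ERBα, read 31.6, 83.9 and 33.7 in CLA replicates 1 to 3 at 8 h, against -7.38, 31.8 and 121.3 in LA replicates 1 to 3. LA replicate 3 was the highest of the 6 arrays and LA replicate 1 the lowest, below 0 and therefore set to 0 before logs were taken. Group means were nearly equal, 49.7 ± 29.6 under CLA and 48.6 ± 66.0 under LA (SD, n = 3 each). With the array sets in the fit the difference was 1.28 ± 0.28 (SE; limma adjusted p = 0.0269), a rise of 2.42 times on the log2(intensity + 16) scale, and it was 1.57 in set A and 1.06 in set B, the only sets that held both treatments at 8 h. LA replicate 3 belonged to set C, where Nr1d1 had its highest mean over the 5 sets (120 ± 17.5, SD over 5 arrays of both treatments), and CLA replicate 3 to set D (14.1 ± 11.5).

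Without the array-set term the difference was 0.39 ± 0.89 (limma adjusted p = 0.929), with the sets as a random block 1.14 (adjusted p = 0.242), and with no filter on low values 1.28 (adjusted p = 0.0552). It was 1.46 without the dim set C (adjusted p = 0.0322) and 1.28 without both arrays of high actin ratio (adjusted p = 0.0344). The call was also lost without LA replicate 1, LA replicate 2, CLA replicate 1 or CLA replicate 3 (1.10 to 1.20, adjusted p 0.0898 to 0.211). Its size varied with the offset: a smaller one of 0.984 gave 2.90 (adjusted p = 0.104) and a larger one of 57.5 gave 0.63 (adjusted p = 0.0232). At the other times Nr1d1 differed by 0.36 ± 0.31 at 4 h, 0.35 ± 0.23 at 12 h and 0.13 ± 0.27 at 24 h, none past the threshold, and the change of its difference from 8 to 12 h, -0.93 ± 0.36, had an adjusted p of 1.

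Nr1d2, the related repressor REV-ERBβ, read 313.7, 134 and 75.1 in CLA replicates 1 to 3 at 8 h, against 183.3, 93.3 and 24.5 in LA replicates 1 to 3. The treatments overlapped, and CLA was the higher in both sets with a pair, by 0.73 in A and 0.46 in B. The difference of 0.71 ± 0.19 did not pass (limma adjusted p = 0.0796), though it did with the larger offset of 57.5 (0.52, adjusted p = 0.0212) and when each gene was tested by 1 probe set (adjusted p = 0.0474). At 24 h CLA was higher in 3 of 3 sets, by 0.20 to 0.53, with 269.3, 133.4 and 88.5 against 181.6, 103 and 74.9 in LA, and a difference of 0.35 ± 0.18 (adjusted p = 0.441).

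Arntl and Clock, the activating pair, did not pass at any time. Arntl read 21.3 and 51.7 in CLA replicates 1 and 2 at 4 h, against 102.8, 58.8 and 51.5 in LA replicates 1 to 3, which left a small overlap and a difference of -0.49 ± 0.18 (limma adjusted p = 0.317). At 8 h it was on the other side, with 126.3, 74.0 and 56.2 under CLA and 86.3, 59.1 and 38.6 under LA (0.33 ± 0.16; adjusted p = 0.398). The change of the Arntl difference from 4 to 8 h was 0.82 ± 0.24, with an adjusted p of 0.397.

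At 12 h Arntl differed by 0.25 ± 0.13 and at 24 h by -0.13 ± 0.15, where all 3 sets lay between -0.12 and -0.14. A dim second Arntl probe set, at a mean of 6.83, differed by -0.16 to 0.18. Clock was measured by 4 probe sets, and the brightest differed by -0.29 ± 0.22, 0.33 ± 0.20, 0.24 ± 0.17 and -0.21 ± 0.19 at 4, 8, 12 and 24 h. Its 3 other probe sets, which had 0 calls, gave differences from -0.45 to 0.45 and did not share 1 sign at any of the 4 times.

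Per1, Per2 and Per3 encode the period proteins that, with the cryptochrome of Cry1, close the loop by blocking the activators. Per3 read 48.6, 14.9 and 15.4 in CLA replicates 1 to 3 at 24 h, against 81.5, 35.2 and 26.5 in LA replicates 1 to 3. CLA was lower in 3 of 3 sets at 24 h, by -0.44 to -0.73, and in 4 of 4 sets at 12 h, by -0.13 to -0.71. The differences of -0.59 ± 0.19 at 24 h and -0.41 ± 0.17 at 12 h did not pass (limma adjusted p = 0.129 and 0.229).

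At 4 h Per3 lay on the other side, with 54.2 and 57.3 under CLA and 109.6, 40.7 and 26.2 under LA (0.47 ± 0.22; limma adjusted p = 0.454). Its 4 dimmer probe sets that were tested, at mean intensities of 11.8 to 17.8, gave differences of -0.10 to -0.19 in 3 and 0.09 in 1 at 24 h, with 0 calls. Their largest, at 4 h, was -0.74 ± 0.21 in a probe set whose treatments did not overlap (adjusted p = 0.199). It was opposite in sign to the brightest probe set, so that the Per3 probe sets disagreed there. Both CLA arrays read low in it, 4.99 and 5.21, below the array median of 10.2. Without CLA 4 h replicate 2, which leaves 1 CLA array, the difference was -1.10. At 12 h another dim Per3 probe set, at a mean of 11.8, differed by -0.49 ± 0.17 (adjusted p = 0.158) and passed without LA 12 h replicate 1 (-0.69, adjusted p = 0.0226). The remaining dim ones differed by -0.27, 0.34 and 0.10 at 12 h, so the Per3 probe sets disagreed in sign at that time too.

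Per1, which also responds at once to stimuli, read 202 and 167.5 in the CLA arrays at 4 h, above all 3 LA arrays at 14.1, 147.9 and 131.2. Such separation at 4 h was seen in 2 of the 21 clock probe sets and in 11.3% of all probe sets. The lowest LA value came from the array with the actin ratio of 8.11, and the Per1 difference with the array sets was 0.46 ± 0.23 (limma adjusted p = 0.491). At 8, 12 and 24 h it was 0.12, 0.11 and -0.08, each within 1 standard error of 0, and the 8 h value was -0.28 without the array-set term.

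Per2 was dim, with 10.7 to 39.6 over the 25 arrays in its brightest probe set, and differed by -0.12 to 0.23. Cry1 read 83.1 and 68.2 in the CLA arrays at 4 h, against 122.7, 55.5 and 12.7 in LA replicates 1 to 3. Its difference there of 0.82 ± 0.39 was the largest of the 10 genes at that time but did not pass (limma adjusted p = 0.452). At later times Cry1 differed by 0.09 ± 0.35, 0.12 ± 0.29 and -0.25 ± 0.34. Its 95% intervals at those times ran from -0.65 to 0.83, from -0.49 to 0.73 and from -0.96 to 0.46.

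Bhlhe40, the E-box repressor DEC1, read 173.2, 155.8 and 248.8 in CLA replicates 1 to 3 at 24 h, against 164.8, 335.8 and 424.2 in LA replicates 1 to 3. CLA was lower in sets B (-1.03) and D (-0.73) and near the LA level in set E (0.07). The difference of -0.57 ± 0.25 did not pass (limma adjusted p = 0.295), while without CLA replicate 1 it was -0.96 and passed (adjusted p = 0.0274). At 4, 8 and 12 h it was 0.19, 0.12 and -0.01.

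**Figure D3:**
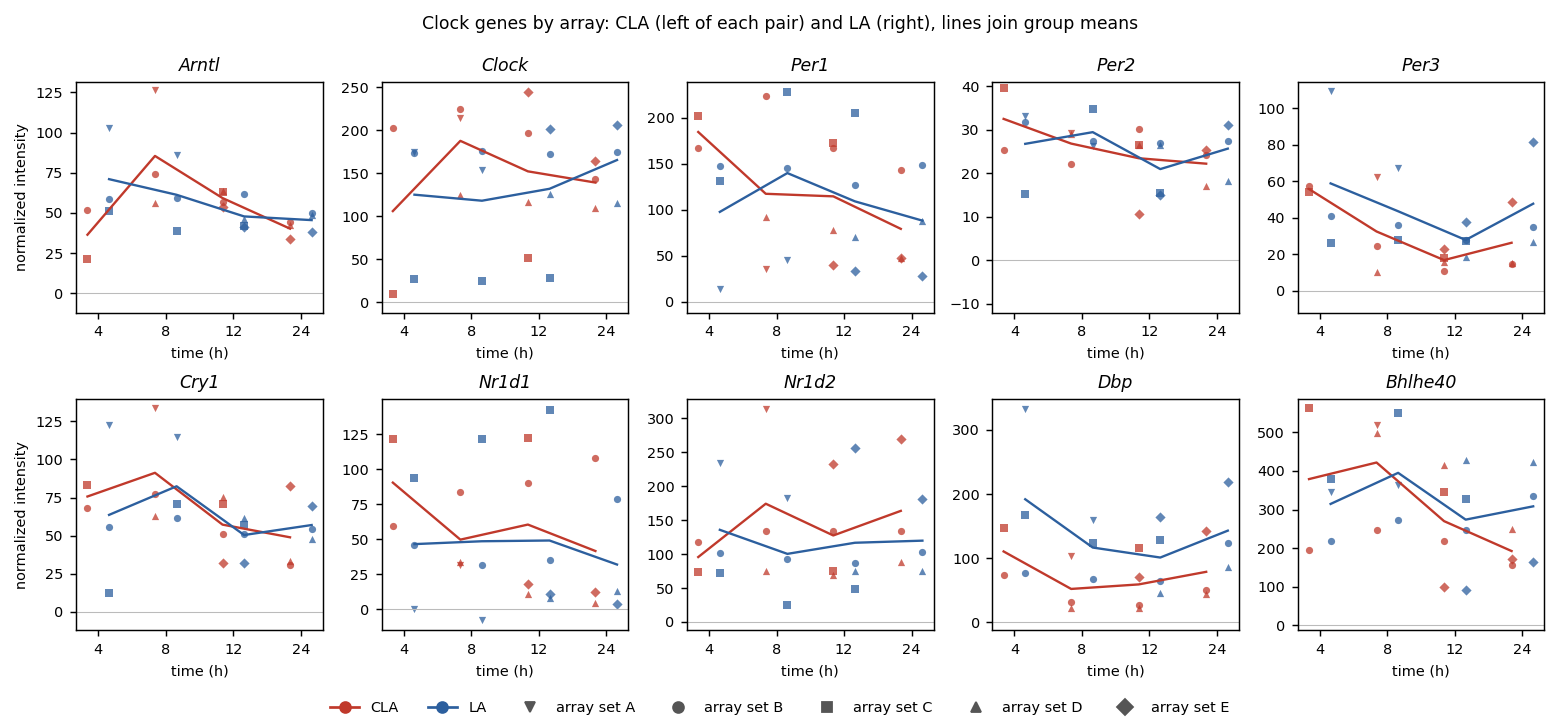
Normalised intensity (linear, vertical axis) of the brightest probe set of each clock gene against time, with CLA arrays left of LA arrays at each time, marker shape for the array set and lines through the group means. How far arrays of 1 shape keep together across times and treatments differs between genes. They do so most clearly in Clock, where the 5 arrays of set C lie between 9.49 and 51.3 and the others between 109.7 and 244.7. They do so least in Per2, where set E alone runs from 10.7 to 31.2.

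**Figure D4:**
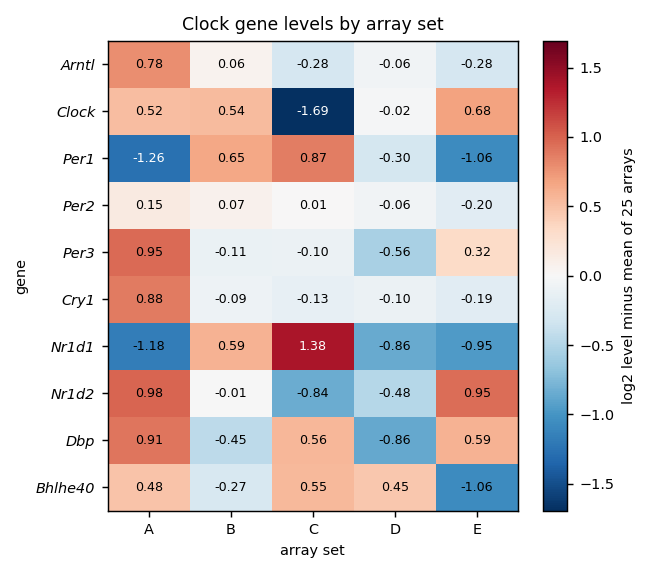
Mean log2 level of each clock gene in array sets A to E minus its mean over all 25 arrays. The range within a gene is widest for Clock and Nr1d1, from -1.69 in set C to 0.68 in set E and from -1.18 in set A to 1.38 in set C.

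The array sets accounted for more of the spread of each of these genes than treatment did. They accounted for 18.3% (Per2) to 92.9% (Clock) of the sum of squares of a gene's log2 levels over the 25 arrays, with a median of 72.5%. Treatment accounted for 0.0011% (Arntl) to 25.9% (Dbp) and time for 1.97% (Nr1d2) to 28.4% (Per3). The sets were made from the same arrays' values, so these shares are a description. The labels do not say what the sets are, and what sets them apart was not tested.

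Levels were also compared between times within each treatment. From 4 samplings over less than a day no period can be read, and the sources used here give no step that aligns the cells. limma's moderated F-test over the 4 times called 0 of the 21 probe sets in CLA, where 0.169% of all probe sets were called, and 0 in LA, where 0 of 32451 were. At an unadjusted p under 0.05 there were 6 of the 21 in CLA (background 12%) and 1 in LA (background 10.5%). The lowest adjusted p were 0.072 in CLA (Per3), 0.0876 in CLA (Dbp) and 0.274 in LA (Dbp). In CLA, Per3 passed without LA 12 h replicate 1 (adjusted p = 0.0486), Dbp without CLA 12 h replicate 4 (0.0363), and Per3 and Arntl with the larger offset (0.0315 and 0.0451).

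Of 60 steps between neighbouring times (10 genes, 3 steps, 2 treatments), 0 passed, with a lowest limma adjusted p of 0.104. Over all probe sets 0.0216% passed from 4 to 8 h in CLA and 0% in the other 5 steps. At an unadjusted p under 0.05, the 3 steps had 7, 2 and 5 of the 21 in CLA (backgrounds 11.2%, 4.32% and 6.05%) and 3, 1 and 3 in LA (12.8%, 6.94% and 3.58%). The largest from 4 to 8 h under CLA were in Per3 (-1.01 ± 0.23), Nr1d1 (0.90 ± 0.32), Dbp (-0.90 ± 0.22) and Arntl (0.64 ± 0.18). The direction for Nr1d1 turned with the array-set term, being -0.72 without it, with mean intensities of 49.7 at 8 h and 90.4 at 4 h. The Per3 probe sets disagreed in this step, since a dim one differed by 0.73 ± 0.21 (adjusted p = 0.204). In LA the same step was -0.23 ± 0.19 in Per3, -0.02 ± 0.27 in Nr1d1, -0.51 ± 0.18 in Dbp and -0.17 ± 0.15 in Arntl. The second Dbp probe set gave -0.72 ± 0.25 under CLA but 0.02 ± 0.21 in LA, so the Dbp probe sets differed in LA. From 12 to 24 h the steps of Dbp were 0.57 ± 0.17 under CLA and 0.68 ± 0.17 under LA (adjusted p = 0.604 and 1). The test of whether the CLA effect changed over time called 0 of the 21 (1 of all probe sets, 0.00308%), with a lowest adjusted p of 0.482, in Arntl. At an unadjusted p under 0.05 that test had 4 of the 21, against 8.22% of all probe sets. The 95% intervals of single steps reached from -1.50 to 1.58.

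**Figure D5:**
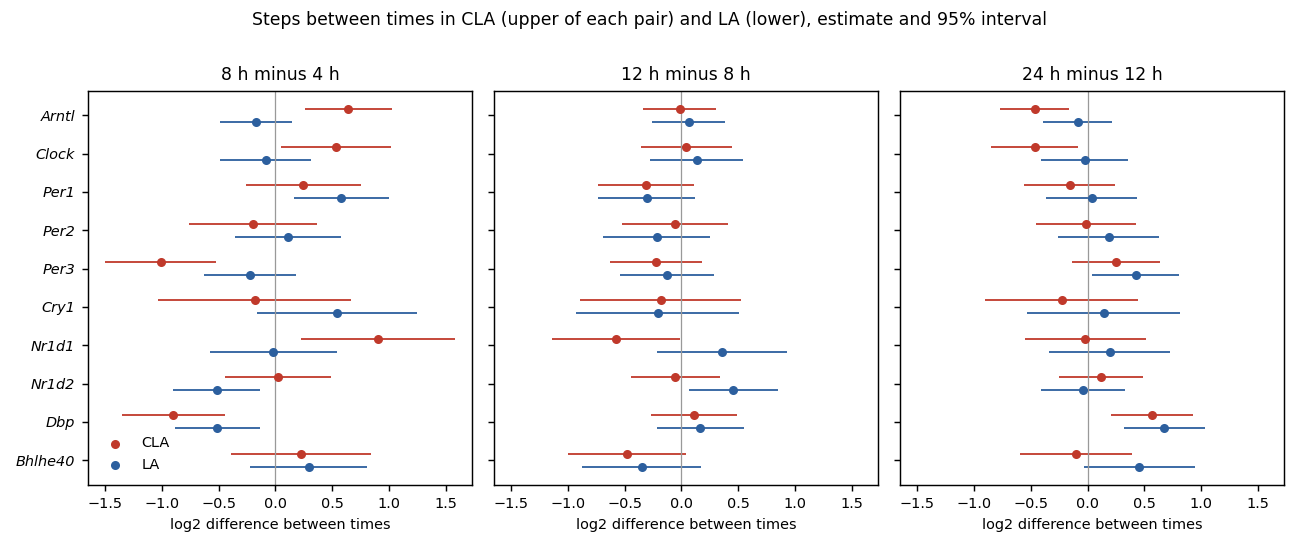
Differences of log2(intensity + 16) between neighbouring times for the brightest probe set of each gene, with CLA as the upper and LA as the lower of each pair, limma's estimates (points) and 95% intervals (lines). None passed the test, and the longest step is that of Per3 from 4 to 8 h under CLA (-1.01), where a dim Per3 probe set that is not drawn gave 0.73.

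Other genes of the clock pathway were read from a list. Of 21 listed, 19 had a probe set and 17 passed the filter on low values, Bhlhe41 and Fbxl21 being too dim. Of the 17, 0 passed at 4, 12 and 24 h and 1 rose at 8 h, Csnk1e, a kinase that marks period proteins for breakdown (143 under CLA and 101 under LA on average; 0.74 ± 0.15, limma adjusted p = 0.0194). Over all probe sets the shares called were 0.0185%, 1.16%, 3% and 2.78% at the 4 times, so these counts are near the background. Their median difference was 0.08, -0.15, -0.01 and -0.07 at the 4 times. Tef, a D-box factor of the same family as Dbp, differed by -0.29 ± 0.13 at 12 h and -0.42 ± 0.15 at 24 h (adjusted p = 0.288 and 0.157), and Hlf, another, was dim and differed by 0.05 and -0.07. Nfil3, a repressor that competes for the D-box, differed by 0.63 ± 0.23, 0.55 ± 0.21, 0.12 ± 0.17 and -0.59 ± 0.20 at 4, 8, 12 and 24 h, with adjusted p of 0.139 or more. Rora, an activator at the RORE, differed by 0.78 ± 0.26 at 8 h (adjusted p = 0.158).

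Genes that respond to stimuli were read beside Per1 and Bhlhe40. Of Nr4a1, Fos, Crem and Sik1, 1 passed, the immediate early factor Fos at 8 h (125 under CLA and 29.9 under LA; 1.96 ± 0.43, limma adjusted p = 0.0256). Of the glucocorticoid-responsive Tsc22d3, Fkbp5, Sgk1 and Klf9, 1 passed, Klf9 at 8 h (1642 under CLA and 663 under LA; 1.12 ± 0.19, adjusted p = 0.00415). The median difference at 8 h was 0.24 over the 4 stimulus genes and 0.07 over the 4 glucocorticoid-responsive genes. At that time 1.16% of all probe sets passed, and 0.887% of all passed as higher under CLA.

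Likeness between genes was measured as Pearson's r over the 25 arrays after the array-set effects were removed. Those effects were estimated together with the 8 group means, so the points still share treatment and time, and r is given as a description. Among 5462 other genes with a mean over 100, those most like Dbp were Foxo1 (0.897), Sik2 (0.876), Dapk1 (0.856), Slc25a15 (0.852) and Ppt1 (0.844). Those most like Arntl were Clock (0.863), Clk4 (0.816), Usp47 (0.766), Bud31 (0.764) and Pgrmc1 (0.75). Among the 45 pairs of members, Arntl and Clock were the most alike (0.863), followed by Per3 and Dbp (0.714), Per2 and Cry1 (0.695) and Per2 and Bhlhe40 (0.648). The most opposed were Nr1d1 and Dbp (-0.531) and Per3 and Nr1d1 (-0.527).

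The authors' deposited table of ratios, which pools the arrays of a group, gave log2 ratios of CLA over LA for Dbp of -0.79, -1.51, -1.22 and -1.02 at 4, 8, 12 and 24 h, with their p-value lowest at 8 h (0.0421). The second Dbp probe set had -0.18, -1.40, -0.57 and -0.55 in the authors' deposited table, with a p-value of 0.00761 at 8 h. For Nr1d1 at 8 h the authors' deposited table had 1.40 with a p-value of 0.314. The direction of their ratio is not stated and was read from the values.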

How the data were processed

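Transcript levels were measured on 25 one-colour Affymetrix arrays from biotin-labelled cRNA. Per the labels, total RNA was extracted with Trizol. The deposited value table holds 1 linear intensity per probe set and array; how the probes were summarised, and whether the authors scaled the arrays, is not given in the sources used here. Of these values 21.6% lie at or below 0. The authors also deposited tables of combined arrays for each time with a ratio, its log10 and a p-value; 8 further columns of pooled arms that name no treatment were not used. The log of the deposited ratio correlated at 0.874 to 0.969 with log2 CLA over LA, so it was read as CLA over LA.

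Here 64 control probe sets were removed, arrays quantile normalised, values floored at 0, 16 added and log2 taken. Probe sets above the array median (10.2) in at least 2 arrays were kept, 32451 of 45037. Of the 45037, 34945 had 1 gene symbol in the platform annotation, 932 several and 9160 none. The 5 array sets came from average-linkage clustering on 12635 probe sets with a mean over 50; complete and Ward linkage gave the same sets. limma 3.58.1 (lmFit, eBayes) in R 4.3.3 fitted 8 group means with the array sets as a term on all 25 arrays, with Benjamini-Hochberg adjustment. The fit was tested on simulated data with the array sets taken as known. What making the sets from the same values does to the standard errors was therefore not tested. All tests are two-sided, and the number of arrays limits the precision. Alternatives changed the offset, normalisation, filter, probe sets, arrays and the array-set term. The named genes are all 10 members, by their brightest probe set and all others, with fixed lists of other clock, stimulus, glucocorticoid and cell type marker genes and the 5 genes most like Arntl and Dbp. Members, lists, array-set term and offset were chosen with earlier results of these data known. Promoter windows were not used in any test.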

Additional observations from a re-analysis of the deposited data

Results flagged for a closer look

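In 1 group, a single array lay far from the others. Per2 read 10.7 in CLA 12 h replicate 1, against 26.4 to 30.2 in the other 3 CLA arrays of that time, so that the gap to the nearest array made up 0.844 of the group's whole range on the log2 scale, above Dixon's 95% critical value for 4 arrays. The LA array of the same array set, LA 12 h replicate 1, was also the lowest of its group at 15.1. Of 20 groups of 4 arrays examined (10 genes in 2 treatments at 12 h), chance flags about 1 in 20.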

How the results depend on the processing

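Of the 3 calls of brightest probe sets, Nr1d1 at 8 h and Dbp at 12 and 24 h, 0 changed sign under any alternative run. At 12 and 24 h, dropping or replacing the array-set term could change no CLA minus LA difference. Each set present then, and each replicate number, held 1 array of each treatment. All 3 calls were lost without the array-set term and with it as a random block (correlation 0.587). The number of arrays and the signal near background limit what can be called. The counts of clock probe sets past the threshold, 1, 2 and 1 of 21 at 8, 12 and 24 h, were 0, 0 and 0 with no array-set term and again as a random block. With the small offset they were 0 at 8 h and 1 at 12 h, and with the larger offset 3 at 8 h and 2 for time in CLA. As deposited they were 0 at 12 h and 0 at 24 h. With no filter they were 0 at 8 h and 1 at 12 h, with 1 probe set per gene 2 at 8 h and 1 at 12 h, without the dim set C 1 at 12 h, and without both arrays of high actin ratio 3 at 12 h. Scaling to the 75th percentile changed no count. Of the 40 differences that did not pass (10 genes and the second Dbp probe set), 3 changed sign with no array-set term, 3 with the replicate block, 6 without set C, 3 as deposited, 2 with the 75th percentile, 1 without the high-actin arrays and 5 in the authors' deposited table. Within single sets 6 of 40 (B), 3 of 20 (C), 2 of 10 (A), 3 of 19 (D) and 7 of 19 (E) did, so their directions are not settled. The cause of these changes was not tested. Some of the alternatives use fewer arrays or probe sets.

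Over all probe sets, 6, 378, 973 and 902 passed at 4, 8, 12 and 24 h. These were 0, 7, 5 and 0 with no array-set term, 8, 274, 566 and 474 as a random block, 8, 174, 533 and 591 with the small offset, 22, 1030, 1728 and 1731 with the larger one and 14, 448, 440 and 425 as deposited. They were 2, 369, 341 and 1048 without set C, 1, 465, 1348 and 1014 without both arrays of high actin ratio, and 11, 359, 887 and 879 with the 75th percentile. For time in CLA, 55 passed, against 0 with no array-set term, 28 as a random block, 10 and 477 with the small and larger offset, 149 as deposited, 36 with no filter, 35 with 1 probe set per gene, 104 without both arrays of high actin ratio and 8 without set C. The change of the effect had 1 call, against up to 24 (as deposited) with all arrays or without set C or the high-actin arrays.

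Leaving out 1 array at a time, 0 to 1 clock probe sets passed at 4 h, 0 to 2 at 8, 12 and 24 h, 0 to 1 for time in CLA, 0 to 0 for time in LA and 0 to 0 for the change of the effect. Over all probe sets the ranges were 0 to 376, 102 to 426, 265 to 1263 and 242 to 967 at 4, 8, 12 and 24 h, 0 to 109 for time in CLA, 0 to 122 for time in LA and 0 to 28 for the change of the effect. An arm left with 1 array was assumed to vary like the other groups. Of 60 steps between times, 0 passed under each alternative other than leaving out arrays, with a lowest adjusted p of 0.0553 (larger offset), and 12 of the 60 changed sign with no array-set term.

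Replicate numbers do not pair the arrays throughout. Same-numbered CLA and LA arrays deviated together at 12 and 24 h (r from 0.402 to 0.789, 7 pairs). At 4 and 8 h they did where they shared a set (r from 0.268 to 0.509). Replicate 1 at 4 h (-0.367) and replicate 3 at 8 h (0.136) did not share one. The sets were made from the likeness of these same arrays, so the r are a description. With the number as a replicate block in place of the sets, 0, 0, 0 and 0 clock probe sets and 0, 78, 68 and 52 of all passed at 4, 8, 12 and 24 h, and 2 of all for time in CLA. Under this replicate block Nr1d1 at 8 h was 0.39 (limma adjusted p = 0.819). The Dbp differences at 12 and 24 h, whose size could not change, had adjusted p of 0.351 and 0.407.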
